A study of Mus musculus with 3 samples.

Results

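Sostdc1 was 1 of the 18029 genes counted in the single-cell RNA libraries of splenic T cells after allogeneic bone marrow transplantation (BMT). It was chosen from the readout, because its unique molecular identifiers (UMIs, 1 per captured RNA molecule) went from 2045 in saline CD4+ T cells to 0 at the higher dose of cyclosporine (CSA). The contrast of 50 mg/kg with saline is therefore given for Sostdc1 as a description, with no test. Tests of 5 mg/kg against saline in CD4+ T cells and of CD8+ against CD4+ T cells reuse the saline counts that chose the gene. Their p-values are not independent of that choice. The other measures were its level by cluster and pool, the contrast of 5 mg/kg with saline, its presence in TEa and clonally expanded cells, and the genes that went with it in saline cells.

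Irradiated B6D2F1 recipients were transplanted with B6 marrow, B6 T cells and 1000 TEa T cells, which carry a transgenic T cell receptor (TCR) for an alloantigen of these recipients. Treatment over days 0 to 6 was a daily dose of saline, of CSA at 5 mg/kg (lower dose) or of CSA at 50 mg/kg (higher dose), and donor T cells were sorted from spleens on day 7. Each pool combined the spleens of 2 mice, with 3 pools and 6 mice per group. Both lineages of a group, CD4+ and CD8+, went into 1 droplet capture, so capture and treatment cannot be told apart, and p-values measure only the spread between pools of a shared capture. TEa cells were left out unless named.

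Sostdc1 encodes a small secreted protein of the sclerostin family, which binds bone morphogenetic proteins (BMPs) and modulates Wnt signalling through LRP coreceptors. Among T cells it is best known in follicular helper T (TFH) cells, the CXCR5+ Bcl6-expressing cells that help B cells in germinal centres. CSA blocks calcineurin and with it the NFAT transcription factors that act downstream of the TCR.

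The mouse gene (ENSMUSG00000036169.6) lies on the plus strand of chromosome 12 at 36314139 to 36318452 in the mm10 build. Its annotated exons span 36314139 to 36314498 and 36317032 to 36318452. The coding sequence begins at 36314294 in the first exon and ends at 36317444 in the second, with 5′ untranslated sequence before it and 3′ untranslated sequence after it. No other annotated gene overlapped it.

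The depth of the summed libraries was high for both lineages. A pool held 875 to 1479 CD4+ T cells with 3994968 to 7592334 UMIs, and 692 to 1615 CD8+ T cells with 4392100 to 11454636 UMIs. The median CD4+ T cell had 3097 UMIs in the saline group and 4396 and 5979.5 UMIs at the lower and higher dose, so shares of positive cells are also given after each cell was thinned to 2000 UMIs. The clusters C0 to C12 were those of the study, made from these same counts, so the levels by cluster are a description. Of the 21204 cells, TEa cells included, 1087 (5.13%) had a strongest hashtag other than that of their pool, and 218 barcodes occurred in 2 captures. Cd8a had 0 UMIs in the CD4+ T cells and Cd4 had 0 in the CD8+ T cells. Whether cells were assigned or kept by these counts was not checked, so they are not read as a measure of purity or free RNA.

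In CD4+ T cells Sostdc1 was present at the same order of level with saline and at 5 mg/kg, and no UMI of it was found at 50 mg/kg. The 3 saline pools held 519, 848 and 678 Sostdc1 UMIs, which were 109, 126 and 103 UMIs per 1000000 UMIs (CPM) after TMM scaling. The 5 mg/kg pools held 453, 476 and 690 UMIs, or 117, 107 and 121 CPM, and the ranges of both groups overlapped. The saline pools averaged 112 ± 11.6 CPM and the 5 mg/kg pools 115 ± 6.95 CPM (SD, n = 3 pools each). The log2 change at 5 mg/kg was 0.03 (SE 0.07, 95% interval -0.11 to 0.17, adjusted p = 0.736, quasi-likelihood test of edgeR with p-values adjusted over all genes by the Benjamini-Hochberg method), where 51.8% of 10568 genes tested were called. Scaling by library size alone gave -0.33 (adjusted p = 0.000671, edgeR), a scaling under which the median of all genes shifted by -0.37.

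Each of the 3 pools at 50 mg/kg held 0 Sostdc1 UMIs, in 3064 CD4+ T cells with 20890770 UMIs in all. A count of 0 allows up to 0.144 CPM, with 3 UMIs over the group as the floor, and a share of positive cells of up to 0.0979%. As a share of all UMIs the level was at least 946-fold lower than in the saline cells. With the CD8+ and TEa cells added, 0 of 6623 cells of this capture held a Sostdc1 UMI. These limits and the intervals of shares below cover counting error only.

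**Figure D1:**
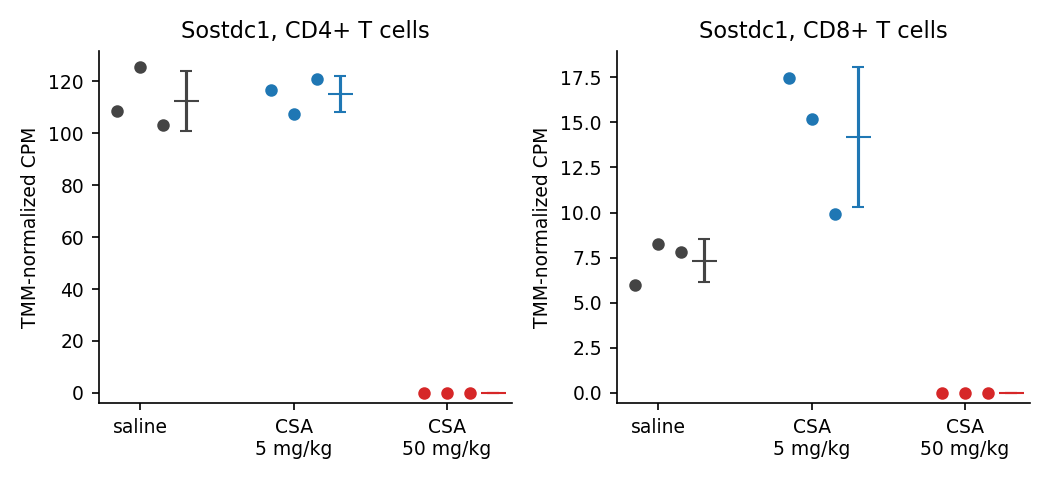
Sostdc1 level in TMM-scaled CPM (vertical axes) against group (horizontal axes) for CD4+ and CD8+ T cells, with 1 point per pool and lines for the mean and SD of 3 pools. The CD4+ pools lie between 103 and 126 CPM with saline and between 107 and 121 CPM at 5 mg/kg, and all 50 mg/kg pools are at 0.

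In CD8+ T cells the Sostdc1 level was lower than in CD4+ T cells, and most of it lay in a single cluster. The saline pools had 49, 82 and 75 UMIs, a mean of 7.33 ± 1.20 CPM (SD, n = 3), and 100 of 4639 cells were positive (2.16%). Naive cells, here taken as cells that should lack it, were positive in 1 of 115 CD8+ C7 cells (0.870%, exact 95% interval 0.0220 to 4.75, median depth 3499 UMIs) and in 2 of 110 CD4+ C9 cells (1.82%, 0.221 to 6.41, 1981 UMIs). The share over all CD8+ T cells, at a median depth of 4108 UMIs, lay within both intervals, which are wide, and is not read as expression. At 5 mg/kg 4 of 105 CD4+ C9 cells were positive, and a single cell held 18 of their 24 UMIs. The naive reference was thus not free of strongly positive cells. Since both lineages of a group shared a capture, the part of free RNA in the CD8+ level was not tested. Within the saline pools the level in CD8+ T cells was lower than in CD4+ T cells by 3.86 on the log2 scale, or a log2 difference of -3.86 (SE 0.08, adjusted p = 8.19e-30, edgeR with pool as a block), where 43% of genes tested were called. Because the gene was chosen for its saline CD4+ counts, which enter this contrast, its p-value is not an independent test. At 5 mg/kg the CD8+ pools held 71, 84 and 78 UMIs, or 17.5, 15.2 and 9.93 CPM. All of these were above the saline pools, with 60.2% of 10841 genes called in this comparison. The log2 change was 0.89 (SE 0.20, adjusted p = 0.00124, edgeR), and 0.47 with scaling by library size (adjusted p = 0.0503, edgeR), where the median of all genes shifted by -0.43. The thinned share of positive CD8+ T cells did not rise with it, at 1.39% ± 0.232 with saline and 1.40% ± 0.511 at 5 mg/kg (SD, n = 3 pools). In 5 mg/kg replicate 3 a single C5 cell held 23 of the 78 UMIs and a single C3 cell held 22. No Sostdc1 UMI was found in the 3532 CD8+ T cells at 50 mg/kg, which was at least 87.7-fold lower than in saline cells as a share of all UMIs. The change at 5 mg/kg differed between the lineages by 0.79 (adjusted p = 0.00982, edgeR interaction term), where 4.2% of genes were called for such a difference, and it did not pass without 5 mg/kg replicate 2 (0.71) or saline replicate 1 (0.70).

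In saline CD4+ T cells a minority of cells carried most of the Sostdc1 RNA. Of 4058 cells, 444 held a UMI (10.9%, exact 95% interval 10.0 to 11.9), with 10.2%, 13.1% and 9.28% positive in the 3 pools. Among the positive cells 138 held a single UMI, 154 held at least 5 and 63 held at least 10, and the highest had 33. The 154 cells with at least 5 UMIs held 72.1% of the Sostdc1 UMIs, and 80 cells (1.97% of all) were enough for 50% of them. Positive and negative cells had like depth, with medians of 3219 and 3085 UMIs. In CD8+ T cells 68 of the 100 positive cells held a single UMI, and 14 held at least 5.

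At 5 mg/kg 287 of 2969 CD4+ T cells were positive, with 10.3%, 9.11% and 9.65% in the 3 pools, and the highest cell had 36 UMIs. The cells with at least 5 UMIs numbered 108, of which 92 belonged to C2 and 2 to C4. With saline, 44 of the 154 such cells belonged to C2 and 67 to C4.

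**Figure D2:**
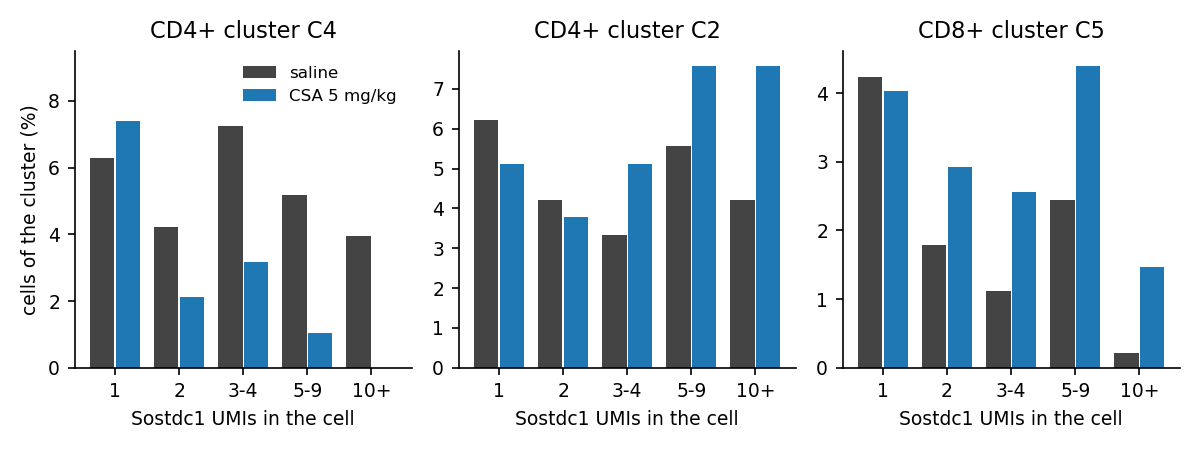
Percent of the cells of a cluster (vertical axis) by the number of Sostdc1 UMIs in the cell (horizontal axis) for C4 and C2 of CD4+ T cells and C5 of CD8+ T cells, with saline and 5 mg/kg side by side; cells without a UMI are not drawn. In C4 the classes above 1 UMI are lower at 5 mg/kg than with saline and the class of 10 or more is empty there, while in C2 that class goes from 4.22% to 7.58% of cells.

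By cluster, the mean saline level over pools was highest in C4, the follicular helper cluster, and next in C2, the Tcf7hi precursor-like cluster. C4 had 496 ± 25.2 CPM and C2 had 339 ± 44.7 CPM (share of all UMIs, SD, n = 3 pools), and the pools of these clusters did not overlap. The saline C4 cells carried the TFH markers, with 217 CPM of Cxcr5, the homing receptor for follicles, 86.7 of the TFH regulator Bcl6, 1211 of the costimulator Icos and 309 of the inhibitory receptor Pdcd1. In the effector cluster C0 these were at 7.13, 7.70, 489 and 313 CPM, so Pdcd1 did not set C4 apart. For Sostdc1, C10 (Isg15hi) followed with 273 ± 323 CPM, from pools at 188, 630 and 0 CPM that overlapped those of C4 and C2, C8 (Fcer1ghi) with 210 ± 162 CPM and C7 (cytotoxic) with 104 ± 75.6 CPM. From C2 downwards each cluster overlapped its neighbour in the order over the pools.

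The cycling effector clusters C6, C5 and C3 held 48.3, 44.7 and 27.3 CPM. The effector clusters C0 and C1 held 11.9 and 7.65 CPM, and the naive cluster C9 held 7.12 CPM, from 2 positive cells of 110. The shares of positive cells in C0, C1, C3, C5 and C6, from 1.92% to 6.09%, lay within the exact interval of the naive C9 cells. C11 (regulatory) and C12 (Th17) were at 0. A positive cell held 4.80 UMIs on average in C4, 5.11 in C2, C6 and C5, 4.89 in C3 and 3.86 in C7, against 1.33 in C0.

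Among the CD8+ clusters Sostdc1 stood highest in C5, the Tcf7hi cluster, with 83.8 ± 12.8 CPM (SD, n = 3 pools), and 44 of its 449 cells were positive (9.80%, exact 95% interval 7.21 to 12.9, median depth 3026 UMIs). That interval lay above those of both naive clusters. In the other CD8+ clusters 0 to 2.14% of cells were positive, within the interval of the naive CD4+ cells or, for a cluster at 0, below it. That interval is wide, as it rests on 2 positive cells of 110, so it does not decide whether these shares are background. The next was C2 with 6.66 CPM, and its pools did not overlap those of C5. Of the 14 saline CD8+ T cells with at least 5 UMIs, 12 were in C5 and 2 in C2, where the highest cell had 9 UMIs. The exhausted cluster C8 was at 0, and 1 of 115 naive (C7) cells was positive.

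**Figure D3:**
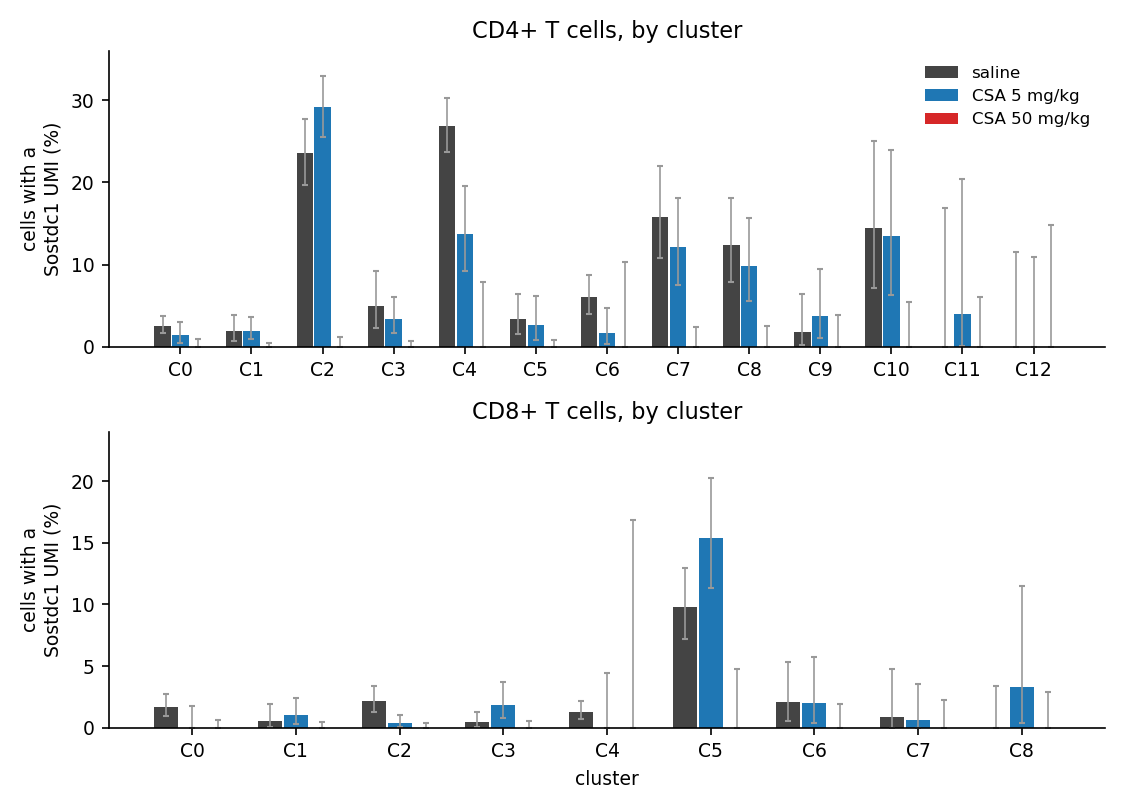
Percent of cells with a Sostdc1 UMI (vertical axes) in each CD4+ and CD8+ cluster (horizontal axes) for the groups, with bars for the pooled cells of a group and lines for exact 95% intervals, which cover counting error only. With saline C4 and C2 of the CD4+ T cells stand above C0 and C1, and C5 above the other CD8+ clusters; every cluster is at 0 at 50 mg/kg.

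Within clusters, CSA at 5 mg/kg went with a lower Sostdc1 level in C4 and a higher one in C2. In C4 the saline pools had 493, 446 and 463 CPM and the 5 mg/kg pools 271, 148 and 89.9 CPM after TMM scaling, with no overlap. The log2 change was -1.45 (SE 0.21, adjusted p = 1.16e-07, edgeR), in a comparison where 7.47% of 2558 genes were called. It rested on 29, 12 and 10 UMIs at 5 mg/kg, in 189 cells of which 26 were positive (13.8%), against 197 of 733 (26.8% ± 1.49 over pools) with saline.

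The C4 cells at 5 mg/kg were shallow, with a median of 1506 UMIs against 2475 with saline. Of them 32 (16.9%) reached 2000 UMIs, against 592 (80.8%) with saline. Over such cells the log2 change was -0.70 (adjusted p = 0.416, edgeR), and after thinning 25% of 32 cells were positive at 5 mg/kg and 27.7% of 592 with saline. The part of depth in the C4 difference was not tested further. Markers of other cells moved in C4 as well. The summed level of 9 myeloid markers, each found among the CD4+ T cells of every group, went from 114 CPM in saline C4 cells to 397 CPM at 5 mg/kg, while in C2 it went from 94.4 to 116 CPM. In C4 the sums of B cell markers were 84.6 CPM (saline) and 82.7 CPM (5 mg/kg), and CD4+ T cells outside C4 had 18.2 and 16.2 CPM. The part of such markers in the C4 and C2 results was not tested.

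In C2 the saline pools had 305, 282 and 367 CPM and the 5 mg/kg pools 405, 414 and 499 CPM. The groups did not overlap, and the log2 change was 0.48 (SE 0.10, adjusted p = 0.000791, edgeR), where 5.32% of 6848 genes were called. The thinned share of positive cells was 19.1% ± 3.15 with saline and 23.3% ± 1.92 at 5 mg/kg (SD, n = 3 pools).

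The change at 5 mg/kg differed between C2 and C4 by 2.00 on the log2 scale (SE 0.22, adjusted p = 8.78e-14, edgeR interaction term), with 3.21% of genes called for this difference. C4 cells held 47.3% ± 7.01 of the CD4+ Sostdc1 UMIs with saline and 3.46% ± 2.61 at 5 mg/kg. C2 cells held 26.9% ± 3.17 and 78.6% ± 4.26, shares that also reflect how many cells of a pool belong to a cluster.

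In C5 of the CD8+ T cells the saline pools had 75.5, 74.8 and 57.5 CPM and the 5 mg/kg pools 140, 163 and 58.4 CPM, so the groups overlapped. The log2 change was 0.73 (SE 0.24, adjusted p = 0.0174, edgeR), where 36.6% of genes were called. It did not pass without 5 mg/kg replicate 1 (0.59), without 5 mg/kg replicate 2 (0.45) or without saline replicate 3 (0.60). Neither did it pass with DESeq2 (0.79, adjusted p = 0.103) or with scaling by library size (0.34, adjusted p = 0.257, edgeR).

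In C8 of the CD4+ T cells the UMIs were 9, 62 and 44 with saline and 11, 14 and 8 at 5 mg/kg. The log2 change was -1.71 (SE 0.36, adjusted p = 0.000648, edgeR), with 7.78% of genes called, and it did not pass without saline replicate 2 (-1.07, adjusted p = 0.0852, edgeR), over cells with 1 clear hashtag (-1.03, adjusted p = 0.0900, edgeR) or with TEa cells included (-0.65, adjusted p = 0.236, edgeR). In C5 of the CD4+ T cells 18, 11 and 17 UMIs with saline stood against 0, 2 and 8 at 5 mg/kg. There the log2 change was -1.98 (SE 0.54, adjusted p = 0.0064, edgeR), with 30.3% of genes called, and it did not pass without saline replicate 1 (-1.60, adjusted p = 0.0549, edgeR). Without 5 mg/kg replicate 3, which held 8 of those UMIs, it was -3.38. In C3, C6, C7 and C10 the log2 changes lay between -0.84 and -0.46, and none passed the test (lowest adjusted p = 0.122, edgeR).

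The clusters with the highest saline levels were at 0 as well at 50 mg/kg. C4 had 45 cells in that group, C2 had 308 and C5 of the CD8+ T cells had 76. As shares of all UMIs these counts of 0 were at least 18.0-fold, 183-fold and 15.7-fold lower than in the saline cells. The C2 cells had a median of 5066 UMIs at 50 mg/kg against 3325 with saline. In the 45 cells of C4 the follicular label was poorly borne out by Bcl6 (0 UMIs) and by Cxcr5, Il21 and Pdcd1 (1 each), while Icos had 25 UMIs. The sum of these TFH markers was 256 CPM, most of it Icos, against 183 CPM in the other CD4+ T cells of that group.

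**Figure D4:**
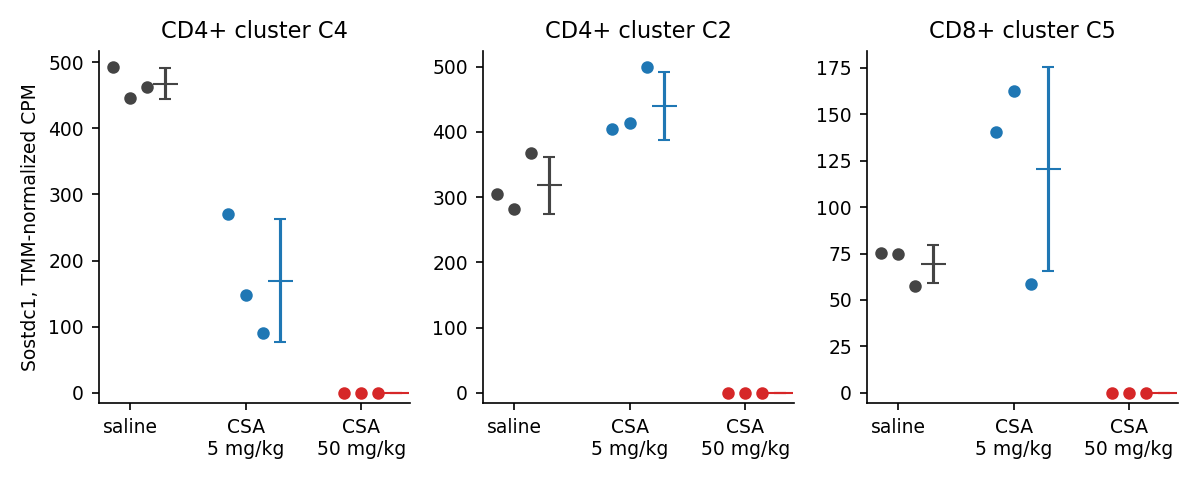
Sostdc1 level in TMM-scaled CPM (vertical axes) against group (horizontal axes) within C4 and C2 of CD4+ T cells and C5 of CD8+ T cells, with 1 point per pool and lines for the mean and SD. In C4 the 5 mg/kg pools lie below all saline pools, in C2 above all of them, and in C5 of the CD8+ T cells the groups overlap.

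TEa cells, marked by their transgenic TCR, held Sostdc1 as well. With saline 20 of 123 TEa CD4+ T cells were positive (16.3%, exact 95% interval 10.2 to 24), and at 5 mg/kg 11 of 130 were (8.46%, 4.30 to 14.6). None of 27 was positive at 50 mg/kg (0 UMIs), where the floor of 3 counts is a share of 11.1% and the exact interval reaches 12.8%. After thinning, the TEa share was 30.8%, 14.6% and 6.38% in the saline pools, beside 8.59%, 11.6% and 7.72% of the other CD4+ T cells. At 5 mg/kg it was 7.5%, 3.03% and 6.67%, beside 9.07%, 6.92% and 8.03%. TEa cells were higher in 2 of 6 pools, and the mean difference of 2.83 percentage points did not pass an exact two-sided sign-flip test (p = 0.781, Benjamini-Hochberg adjusted p = 0.781 over 2 comparisons, smallest p possible 0.03125). It was -1.04 without saline replicate 1.

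The positive cells came from many clones. With saline 377 positive cells had a TCR clonotype, and they held 364 distinct ones. Most saline clonotypes were seen once, as 229 clones of at least 2 cells held 667 of the 3104 cells with a clonotype. Of these clones 60 held a positive cell and 13 held 2, the most in any clone. After thinning, 7.82% ± 1.81 of cells in clones of at least 2 cells were positive, against 9.51% ± 1.84 of cells with a clonotype seen once (SD, n = 6 pools of saline and 5 mg/kg). Expanded clones were higher in 1 of 6 pools, and the difference of -1.69 points did not pass (exact two-sided sign-flip p = 0.0625, adjusted p = 0.125).

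The genes most like Sostdc1 were ranked by Pearson's r of log2(CPM + 1) over the 11 CD4+ clusters with at least 50 saline cells, among 8191 genes. These r are a description over clusters that share their libraries and were made from these counts. Cxcr5 came first (r = 0.96), followed by Decr1, a mitochondrial enzyme of fatty acid oxidation (0.94), and the HMG-box factor Tox2 (0.91). Ispd, which makes the sugar donor for dystroglycan glycosylation, adenosine kinase (Adk) and the NF-κB regulator Tnip2 reached 0.91, 0.91 and 0.90. The Arf GTPase regulator Asap1, the actin-binding Synpo, the phosphatase Ptpn1 and the SLAM receptor Slamf6 completed the list, at 0.89, 0.89, 0.88 and 0.88. Of these 10 genes 9 fell at 50 mg/kg over all CD4+ T cells, with a median log2 change of -1.31, where 70.5% of genes tested were called and 35.8% were lower. Adk did not pass (0.09, adjusted p = 0.377, edgeR). The genes were chosen by their pattern in saline cells, most of them highest in C4, which had 733 saline cells and 45 at 50 mg/kg. Their fall is therefore a description, and the share over all genes is not a matched background. At 5 mg/kg 1 rose and 3 fell, where 26.1% of all genes were called higher and 25.6% lower.

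Cell by cell within saline C4, 197 cells with a Sostdc1 UMI were set against 536 without, at median depths of 2621 and 2426.5 UMIs. The genes named are those with the largest mean log2 ratio of summed CPM and the same sign in all 3 pools, and carry no test. Ispd led with a log2 ratio of 1.70 (pools 1.23, 1.72 and 2.14), from 33.4 CPM in negative to 108 CPM in positive cells. Il21, the TFH cytokine that drives germinal centre B cells, followed with 1.31 (174.7 against 71.0 CPM). The others were the MARCKS-like Marcksl1 (1.09), the nucleolar Gnl3 (1.07), the scaffold ligase Sh3rf1 (1.05), the secreted Angptl2 (1.03), the transporter Slc22a15 (0.95), the surface ligand Cd200 (0.94), the endosomal Eea1 (0.88) and the ceramide synthase Cers4 (0.87).

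On the lower side stood Ms4a4c (-2.06), the granzyme Gzmk (-1.57), the lymph node homing receptor Ccr7 (-1.40), the sterol enzyme Sc5d (-1.30) and the sialic acid hydroxylase Cmah (-1.26). Ccr7 was at 82.0 CPM in positive and 217 CPM in negative cells. Of the 10 higher genes, 9 had a mean of the same sign in saline C2, 8 in C2 at 5 mg/kg and 8 in saline C5 of the CD8+ T cells, which are cells that the choice did not use. Of the 5 lower genes 4, 5 and 4 did. The sign was the same in all 3 pools for 7, 8 and 5 of the higher genes and for 2, 4 and 3 of the lower ones. Gnl3 was at 0.01 in saline C2 and turned in the last 2 of these populations, and Cers4 turned in all of them.

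**Figure D5:**
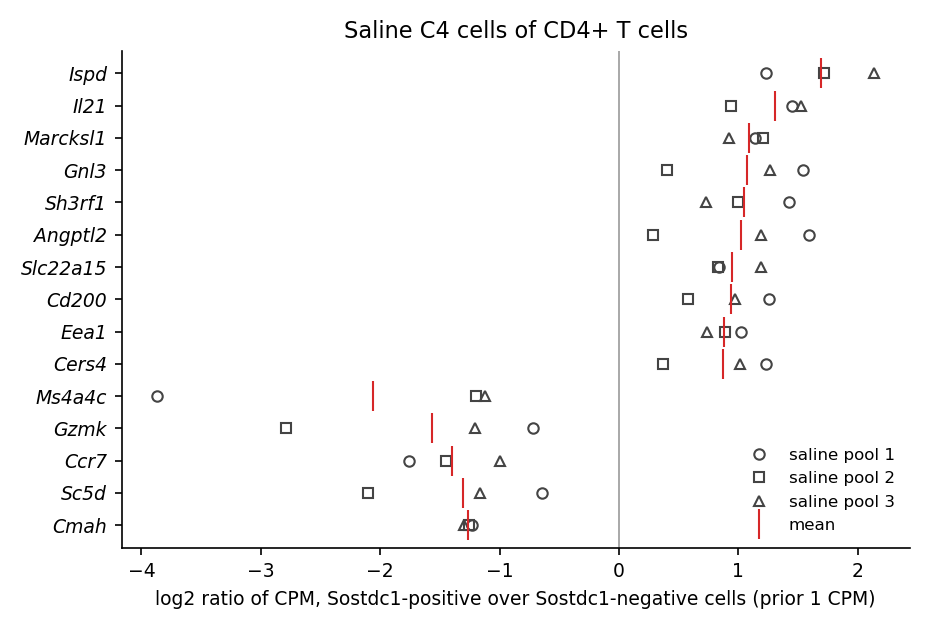
Log2 ratio of summed CPM in cells with a Sostdc1 UMI over cells without one (horizontal axis) for the genes named in saline C4 (vertical axis), with 1 symbol per saline pool and a red line for the mean. The higher genes run from 1.70 for Ispd to 0.87 for Cers4 and the lower ones to -2.06 for Ms4a4c.

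A list of 40 TFH genes was read in the same cells. Of its 31 members with at least 50 CPM in saline C4, 18 were higher in Sostdc1-positive cells in all 3 pools, beside 15.6% of all 3992 genes at that level, and 1 was lower in all 3 (Lef1, a partner of β-catenin). The median log2 ratio was 0.29 over the list and -0.01 over all genes. Bcl6 was at 126 CPM in positive and 70.7 in negative cells (log2 ratio 0.82), and Pdcd1 and the exhaustion-associated factor Tox had ratios of 0.85 and 0.83. Cxcr5 had a ratio of 0.24, and its sign varied among pools.

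Over all CD4+ T cells, 39 of the TFH genes could be tested. At 5 mg/kg 9 rose and 16 fell, where 26.1% of all genes were called higher and 25.6% lower. The median log2 change was -0.22 against -0.01 over all genes, and with scaling by library size 3 rose and 29 fell. Bcl6 fell from 21.0 ± 2.81 to 14.1 ± 0.984 CPM (log2 change -0.59, adjusted p = 0.000867, edgeR). Cxcr5 (-0.48), Icos (-0.25), Il21 (-0.49), Tox (-0.60), the factor Irf4 (-0.81) and the zinc finger gene Zfp831 (-1.43) fell too. Pdcd1 did not pass (0.07, adjusted p = 0.587, edgeR). The factor Maf (0.39), the cytokine Il4 (1.13) and the phosphatase inhibitor Ppp1r14b (0.66) rose, of which Maf and Il4 did not pass with scaling by library size (0.03 and 0.77). Il4 did not pass either without 5 mg/kg replicate 2 (0.67) or without saline replicate 1 (0.96).

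With 50 mg/kg 32 of the 39 fell and 3 rose, where 35.8% of all genes were called lower and 34.7% higher, and the median log2 change was -1.65. Bcl6 fell to 3.80 ± 0.456 CPM (-2.48, adjusted p = 1.78e-11, edgeR). The largest falls were those of Angptl2 (456 UMIs to 6, log2 change -6.20), Tox2 (766 to 14, -5.76), the factor Cebpa (168 to 4, -5.28), Cxcr5 (862 to 39, -4.48) and Il21 (912 to 47, -4.30). Pdcd1 fell by 3.40, Tox by 3.39 and Icos by 1.42 on the log2 scale, while Maf did not pass (-0.11, adjusted p = 0.0862, edgeR). In bulk sums, fewer cells of a type and less RNA per cell cannot be told apart.

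Within clusters the list moved little at 5 mg/kg. In C4 0 rose and 2 of 25 tested fell, where 2.54% of all genes were called lower. In C2 2 rose and 1 fell of 34, where 3.04% of all genes were called higher and 2.28% lower. By contrast, at 50 mg/kg 17 of 25 fell in C4, where 18.8% of genes were called and 8.29% were lower. In C2 24 of 34 fell and 2 rose, where 22.5% were called, 11% lower and 11.6% higher. As a share of all UMIs, a scale on which the median of all genes shifted by -0.37 at 5 mg/kg, the sum of the TFH markers over all CD4+ T cells went from 932 to 1026 CPM in the saline pools to 666 to 679 at 5 mg/kg and 155 to 214 at 50 mg/kg.

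The pathway that Sostdc1 acts on was read from a list of 86 BMP and Wnt genes, of which 69 were in the count table and 35 were tested. Sost, the closest relative of Sostdc1, was not analysed here. At 5 mg/kg 4 rose and 14 fell (51.8% of all genes called), and at 50 mg/kg 8 rose and 16 fell (70.5% of all genes called). The share called among the tested members, 51.4% and 68.6%, was near that of all genes. By direction, 40% and 45.7% of the tested members fell, beside 25.6% and 35.8% of all genes. The 4 and 8 that rose stood beside 26.1% and 34.7% of all genes. The median log2 changes were -0.25 and -0.24, against -0.01 over all genes at each dose. With scaling by library size 1 rose and 24 fell at the lower dose, and 4 rose and 23 fell at the higher.

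Among ligands and their modulators, Twsg1, a BMP-binding secreted protein, was at 30.5 ± 2.14 CPM in saline cells and 19.1 ± 3.10 and 12 ± 0.698 CPM at the lower and higher dose (log2 changes -0.66 and -1.34). The ligand Bmp7 had 54 UMIs with saline and 41 and 16 at the doses, and fell at 50 mg/kg (-1.76, adjusted p = 0.000314, edgeR). Fstl3, an inhibitor of activin, rose there (14 to 51 UMIs, log2 change 1.81, adjusted p = 0.00112, edgeR).

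Among receptors, Bmpr2 fell at both doses (71, 22 and 19 UMIs, log2 changes -1.32 and -1.92) and the activin receptor Acvr2a at 50 mg/kg (33 to 5 UMIs, -2.66). The Wnt receptor Fzd5 fell at both doses (-1.03 and -1.15), but at 5 mg/kg it did not pass without 5 mg/kg replicate 3 (-0.77), saline replicate 1 (-0.90) or saline replicate 3 (-0.84). Lrp6, a Wnt coreceptor to which Sostdc1 binds, had 350, 209 and 165 UMIs, with log2 changes of -0.37 (adjusted p = 0.0208, edgeR) and -1.12 (adjusted p = 2.17e-07, edgeR). Lrp5 and Lrp4 had 39 and 4 UMIs with saline and were too low to test.

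Inside the cell, Apc, part of the complex that degrades β-catenin, fell by 0.79 and 1.73 on the log2 scale. Rnf43, a ligase that removes Wnt receptors, fell by 0.61 at 5 mg/kg and did not pass at 50 mg/kg (0.29). Its fall was lost without 5 mg/kg replicate 1 (-0.48) or saline replicate 3 (-0.44). The Wnt target factor Tcf7, a mark of precursor cells, fell by 0.26 and 1.82.

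Near loss at 50 mg/kg was rare. Of 8855 genes with at least 100 UMIs in saline CD4+ T cells, 5 (0.0565%) had at most 3 at 50 mg/kg, Sostdc1 among them. Gcg, the glucagon precursor, had 253, 256 and 0 UMIs at the doses in order, but its saline UMIs lay in 35 cells, of which 3 held Sostdc1. The chemokine receptor Cx3cr1 had 200, 73 and 3, and 4 of its 161 saline cells held Sostdc1. The kinase Dclk1 had 140, 79 and 3. Csgalnact1, an enzyme of chondroitin sulphate synthesis, had 113, 95 and 1, and its pattern was close to that of Sostdc1, with r = 0.94 over the 11 clusters and Sostdc1 in 37 of its 102 positive cells.

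Of the genes that were higher in Sostdc1-positive C4 cells, 8 of 10 fell over all CD4+ T cells at 50 mg/kg, where 35.8% of all genes were called lower, with a median log2 change of -2.14. These genes were chosen for their level in saline C4 cells, and C4 had 733 cells with saline and 45 at 50 mg/kg. The choice thus favoured a fall in these sums, and the share over all genes is not a matched background. Of the 5 lower genes, 2 rose (Ms4a4c 1.65 and Ccr7 0.40), where 34.7% of all genes were called higher, and Gzmk fell by 0.80 on the log2 scale. The rise of Ccr7 was lost without saline replicate 3, without 50 mg/kg replicate 2 and without 50 mg/kg replicate 3 (0.34, 0.28 and 0.27). With scaling by library size Ccr7 was at -0.035.

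Ispd is also the next gene on the same strand of chromosome 12 with more than a few counts, at 36381450 to 36689503. It was found in 20.5% of Sostdc1-positive and 2.82% of Sostdc1-negative saline CD4+ T cells, and 91 of its 193 positive cells held both. It had 228, 153 and 8 UMIs at the doses in order, with a log2 change of -4.80 at 50 mg/kg (SE 0.31, adjusted p = 1.24e-11, edgeR) and -0.20 at 5 mg/kg (adjusted p = 0.348, edgeR). On the other side, the translation regulator Bzw2 was at 104 CPM in saline cells and at 106 CPM in those of 50 mg/kg (0.02, adjusted p = 0.703, edgeR), and Ankmy2 had a log2 change of -0.16 (adjusted p = 0.189, edgeR). Lrrc72 and D630036H23Rik had 5 and 4 saline UMIs. Whether reads past the end of one gene were counted for another was not tested.

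Summed B cell markers were 51.4 CPM in Sostdc1-positive and 23.4 CPM in Sostdc1-negative saline CD4+ T cells, most of it Cd22 (43.9 and 15.9 CPM), while the defining marker Ms4a1 had 0 UMIs in the positive cells. Over all CD4+ T cells the B cell sum was 24.8 to 28.0 CPM in the saline pools, 12.5 to 26.1 at 5 mg/kg and 8.03 to 11.3 at 50 mg/kg. Myeloid markers ran from 85.9 to 120, 118 to 200 and 69.4 to 114 CPM, and stromal markers had 0 UMIs in the Sostdc1-positive cells. Erythroid markers were higher at 50 mg/kg, with 27.8 to 37.5 CPM against 3.39 to 15.5 CPM with saline, and their part in the Sostdc1 result was not tested. Cycling genes were lower in Sostdc1-positive cells, at 1320 against 2168 CPM. They were also low in saline C4 and C2, at 804 and 551 CPM, against 2255 and 2252 CPM outside each. The part of cluster make-up in this difference was not tested.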

How the data were processed

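The deposited values were raw counts of UMIs per gene and cell from 10x Chromium 5′ libraries, which the authors had filtered to the cells and genes kept. The antibody and hashtag values were deposited as counts per cell, and the fraction of mitochondrial UMIs was computed by the authors before deposit and was not used here. The submitters' processing notes name mm10, Cell Ranger and Seurat 3.0.0. Pool, cluster, TEa mark and clonotype of each cell were those of the authors' tables. The CD8+ clusters of the table were matched to the names C0 to C8 by their cell numbers. The authors' tables mark no kept cell as a doublet, no doublet caller was run here, and cells with 1 clear hashtag (second hashtag under 0.5 of the strongest) were an alternative.

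Counts were summed per pool, by lineage or cluster (at least 10 cells per pool), and tested with the quasi-likelihood test of edgeR 4.0.16 in R 4.3.3. Low genes were removed by filterByExpr, sums were TMM-scaled, 1 fit held all 9 pools, and p-values were adjusted over all genes by the Benjamini-Hochberg method at a threshold of 0.05. CPM of clusters compared with each other are shares of all UMIs. CD8+ and CD4+ sums of a pool and the differences between changes were fitted with pool as a block. TEa and clonotype comparisons used an exact two-sided sign-flip test over 6 pools (Python 3.11.15). Intervals of shares are exact (Clopper-Pearson, 95%, scipy 1.17.1), and the limit of a count of 0 is 3 counts. Alternatives were DESeq2 1.42.0, scaling by library size, no filter on low counts, a fit of only the groups compared, the pool number as a block, cells of at least 2000 UMIs, TEa cells included, and leaving out each pool. The fits were tested on simulated data in which the changed genes were known.

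Sostdc1, the gene lists and the tests were chosen with earlier results of these data known. The genes named were the 10 most like Sostdc1 over clusters (mean of at least 10 CPM), the 10 higher and 5 lower in Sostdc1-positive saline C4 cells (at least 50 CPM, prior of 1 CPM, same sign in 3 pools), Bcl6, Cxcr5, Icos, Pdcd1, Il21 and Maf with the 5 largest called changes per list and dose, and genes with at least 100 saline UMIs and at most 3 at 50 mg/kg, without TCR and immunoglobulin segments. Lrp4, Lrp5, Lrp6 and the neighbouring genes were added for their relation to Sostdc1. Tests within C2, C8 and C5 of CD4+, of CD8+ and of CD8+ C5 cells, the differences between changes and the clear hashtag cells were added after seeing the data.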

Additional observations from a re-analysis of the deposited data

Results flagged for a closer look

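The change of Sostdc1 at 5 mg/kg differed between lineages and between clusters, in tests of the difference itself (edgeR, Benjamini-Hochberg method over all genes) that were chosen after the values had been seen. In CD8+ T cells the change exceeded that in CD4+ T cells by 0.79 on the log2 scale (SE 0.18, adjusted p = 0.00982), where 4.2% of genes were called for this difference. It did not pass without 5 mg/kg replicate 2 (0.71, adjusted p = 0.0618) or without saline replicate 1 (0.70, adjusted p = 0.0539), and ranged from 0.70 to 1.16 without single pools. The thinned share of positive CD8+ T cells was 1.39% with saline and 1.40% at 5 mg/kg, so it did not rise with the level. Most CD8+ Sostdc1 UMIs lay in C5, with 63.4% ± 9.46 with saline and 80.8% ± 23.3 at 5 mg/kg (SD, n = 3 pools). The change in C2 exceeded that in C4 of CD4+ T cells by 2.00 (SE 0.22, adjusted p = 8.78e-14), with a range of 1.53 to 2.67 without single pools. C4 cells at 5 mg/kg were shallower than those of saline while C2 cells were deeper, and the part of depth in this difference was not tested.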

How the results depend on the processing

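The change of Sostdc1 in CD4+ T cells at 5 mg/kg did not pass in any alternative but scaling by library size (-0.33). It turned sign without 5 mg/kg replicate 3 (-0.0087) or saline replicate 3, and without single pools it ran from -0.031 to 0.12. The fall in C4 passed in all alternatives run (-2.03 to -1.10 without single pools) except over cells of at least 2000 UMIs (-0.70), and the rise in C2 passed in all of them (0.37 to 0.60). In C5 of CD8+ T cells the change did not pass with DESeq2 (0.79), scaling by library size (0.34) or clear hashtag cells (0.61), and ran from 0.45 to 1.15 without single pools. Over all CD8+ T cells it did not pass with scaling by library size (0.47), and its difference from the CD4+ change ran from 0.70 to 1.16 without single pools. The saline and 5 mg/kg levels of CD4+ T cells were 135 and 108 CPM by library size, and 20.7% of saline C4 cells held at least 2 UMIs. The TEa difference was -0.13 on the log2 scale of CPM and -1.72 points in C4 alone (4 pools), and ran from -1.04 to 4.18 points without single pools. BMP and Wnt genes called at 5 mg/kg were 11 with DESeq2 and 11 to 18 without single pools, lowest without 5 mg/kg replicate 3. Pdcd1 at 5 mg/kg was at -0.29 by library size and -0.022 to 0.18 without single pools. At 50 mg/kg Adk, Ccr7 and Sc5d were at -0.35, -0.035 and -0.25 by library size, Cers4 at 0.00114 with DESeq2, and Cmah at -0.13 to 0.020 without single pools. The cause of these moves was not tested. Under TMM scaling 50.5% of genes called at 5 mg/kg in CD4+ T cells were higher, against 14% by library size, and at 50 mg/kg 49.2% against 20.4%. Of the genes named with a test, 11 of 16 at 5 mg/kg and 26 of 34 at 50 mg/kg kept direction and side of the threshold in every alternative.

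With the pool number as a block, the changes at 5 mg/kg were 0.04 in CD4+ T cells, -1.47 in C4 and 0.47 in C2. Same-numbered pools did not deviate together (correlations -0.09 to 0.04), so the block is not a pairing.

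The number of cells limits the reading of C4 at 50 mg/kg (45 cells) and of TEa cells there (27 cells). All p-values rest on pools that share a capture.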
